A study of Homo sapiens with 26 samples.

Results

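The 10 genes described here encode the 6 human peroxiredoxins (PRDX1 to PRDX6), thioredoxin (TXN), the superoxide dismutases SOD1 and SOD2, and catalase (CAT). They were taken by gene symbol from 4 tables of ribosome footprint counts, each with 19478 transcripts, and every one of the 10 had 1 row in each table. Ribosome profiling sequences the mRNA fragments that ribosomes shield from RNase I, so the count of a coding sequence reflects how many ribosomes were on its mRNA. The series asked whether the methods that remove ribosomal RNA from such libraries change these counts, and the depletion kits of this study were used on 3 human cell lines.

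HEK293T and HEK293FT are lines of embryonic kidney origin, and K562 is a leukaemia line with erythroid features. The labels name no genetic change and no treatment in any group. HEK cells were kept in DMEM and K562 cells in RPMI, each with 10% FBS, and cycloheximide was present at lysis. The HEK293T table held 2 libraries each of undepleted, Ribo-Zero Gold, RiboCop and NEBNext material, from fragments of 15 to 35 nt. The HEK293FT table held 1 undepleted library and 1 depleted with custom oligos, also from 15 to 35 nt. In the K562 kit table, from fragments of 20 to 34 nt, FastSelect, riboPools, cold-eluted riboPools and undepleted material had 2 libraries apiece. It further held 4 Ribo-Zero Plus libraries, 1 each of the plain kit, the kit with oligos, the kit with formaldehyde, and the kit with both additions. The K562 size table held 1 undepleted and 1 NEBNext library for fragments of 20 to 34 nt, and 1 of each for 20 to 60 nt. A label of both undepleted libraries in that table names NEBNext, and the titles were followed instead. NEBNext and Ribo-Zero Plus cut ribosomal RNA with a nuclease after probes have bound it. Ribo-Zero Gold, RiboCop and riboPools pull it out with bead-bound probes, and FastSelect keeps the reverse transcriptase from copying it. The labels do not say whether libraries of a group came from separate cultures, so p-values measure only the spread between these libraries, which may be technical.

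Library totals lay between 46858 and 5795774 counts, and levels are given as CPM, the count scaled to a library total of 1000000. The shallowest library was the undepleted 20 to 60 nt library of K562. The 3 Ribo-Zero Plus libraries with additions held between 116742 and 184722 counts and stood apart from the other libraries of their table. Of 10 erythroid markers, the summed level was 3669 to 12913 CPM in the 16 K562 libraries and 0 to 15 CPM in the 10 HEK libraries. The lowest K562 sums, 3669, 5979 and 9225 CPM, belonged to those 3 libraries. In the HEK libraries HBG1, HBG2, HBE1, GATA1 and ALAS2 were at 0. Of 6 embryonic kidney markers, the summed level was 254 to 645 CPM in HEK cells and at most 4 CPM in K562 cells. NEFM and CDH2 were present in every HEK library, whereas PAX2, LHX1 and EYA1 never exceeded 8.33 CPM, so these defining kidney genes were nearly absent from HEK cells.

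Peroxiredoxins are enzymes that reduce hydrogen peroxide and organic peroxides through a cysteine in their active site, which is oxidised in the reaction. In most family members the oxidised enzyme is then reduced by thioredoxin, which thioredoxin reductase keeps reduced with electrons from NADPH. Superoxide dismutases make hydrogen peroxide from superoxide, SOD1 mainly in the cytosol and SOD2 in mitochondria, and catalase breaks hydrogen peroxide down in peroxisomes. Red blood cells carry much catalase, PRDX2 and SOD1.

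The stretch around the peroxide-reducing cysteine is shown because it is what the peroxiredoxins share, and because footprints of similar genes can be hard to assign. Each line gives 30 bases of the coding strand of the transcript in GENCODE 29 (GRCh38), 5′ to 3′, with the codon of that cysteine in capitals. For TXN the capitals mark the first cysteine of its active-site pair.
PRDX1: ttcacctttgtgTGCcccacggagatcatt
PRDX2: ttcacttttgtgTGCcccaccgagatcatc
PRDX3: ttcacctttgtgTGTcctacagaaattgtt
PRDX4: ttcacatttgtgTGTccaactgaaattatc
PRDX5: ttcacccctggaTGTtccaagacacacctg
PRDX6: tttaccccagtgTGCaccacagagcttggc
TXN: tcagccacgtggTGTgggccttgcaaaatg

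Compared with PRDX1, this window differed at 3 bases in PRDX2, 6 in PRDX3, 7 in PRDX4, 11 in PRDX6 and 14 in PRDX5. The codons lie in exons, on the minus strand at chr1:45515758-45515760 (PRDX1, codon 52), chr19:12801020-12801022 (PRDX2, codon 51), chr10:119173860-119173862 (PRDX3, codon 108) and chr9:110251391-110251393 (TXN, codon 32). On the plus strand they lie at chrX:23675000-23675002 (PRDX4, codon 124), chr11:64319860-64319862 (PRDX5, codon 100) and chr1:173481369-173481371 (PRDX6, codon 47). The windows of PRDX3, PRDX4 and PRDX5 run across an exon junction. Over whole coding sequences, PRDX1 and PRDX2 were the most alike pair, with 72.4% identical bases over 597 aligned bases and 77.8% identical residues. PRDX1 and PRDX5 shared 19.7% of residues.

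No stretch of 28 bases, about the length of a footprint, of any of the 10 coding sequences occurred in the annotated transcripts of another protein-coding gene. Processed pseudogenes did share such stretches. They held 43.3% of those of TXN, 26.2% of PRDX3, 24.2% of PRDX2, 18.2% of PRDX1 and 17.3% of PRDX6, against 3.0% of SOD1, 2.6% of PRDX5 and 0% of PRDX4, SOD2 and CAT. How reads that match several places were counted is not given in the sources used here, so the levels of TXN and of these 4 peroxiredoxins are less certain than those of CAT, SOD2 and PRDX4.

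The coding sequences belong to SOD1 on chr21:31659622-31668931 (plus strand, 154 codons), SOD2 on chr6:159669057-159693328 (minus strand, 222 codons) and CAT on chr11:34438925-34472062 (plus strand, 527 codons). The peroxiredoxins run from 198 codons (PRDX2) to 271 codons (PRDX4), and TXN has 105.

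Together the 10 genes took 0.395% to 0.482% of all counts in every library, with no gene at 0 anywhere. Their order per kilobase of coding sequence, the scale on which genes of unequal length can be compared, was led by the cytosolic enzymes. In undepleted HEK293T libraries PRDX1 was highest at 2095 ± 552 CPM per kb (SD, n = 2), followed by TXN at 1453 ± 90.3 and SOD1 at 1122 ± 117. PRDX6, PRDX2 and PRDX3 came next at 768 ± 197, 696 ± 120 and 640 ± 104 CPM per kb, and the libraries of these neighbours overlapped. PRDX4 (451 ± 74.2), PRDX5 (237 ± 48.9), SOD2 (97.2 ± 14.1) and CAT (25.5 ± 1.14) closed the order on this scale, each clear of its neighbour. With 2 libraries a group these orders describe the libraries at hand. SOD2 and CAT had few counts in undepleted HEK293T (given below), and an SD from 2 such values can fall short of the counting error.

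PRDX1 also led in K562 cells, and the order below it differed. In the undepleted libraries of the K562 kit table PRDX1 had 1752 ± 36.9 CPM per kb (SD, n = 2), followed by PRDX6 (1214 ± 0.843) and SOD1 (1192 ± 53.9), whose libraries overlapped. TXN came next at 936 ± 51.7, then PRDX2 at 747 ± 13.3 and PRDX3 at 349 ± 15.3 CPM per kb. CAT followed at 274 ± 9.49 and overlapped SOD2 at 262 ± 16.4, and PRDX4 and PRDX5 were last at 196 ± 3.63 and 168 ± 7.28. In the single undepleted HEK293FT library TXN led with 1714 CPM per kb, PRDX1 had 1628 and CAT was last with 34.3.

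**Figure D1:**
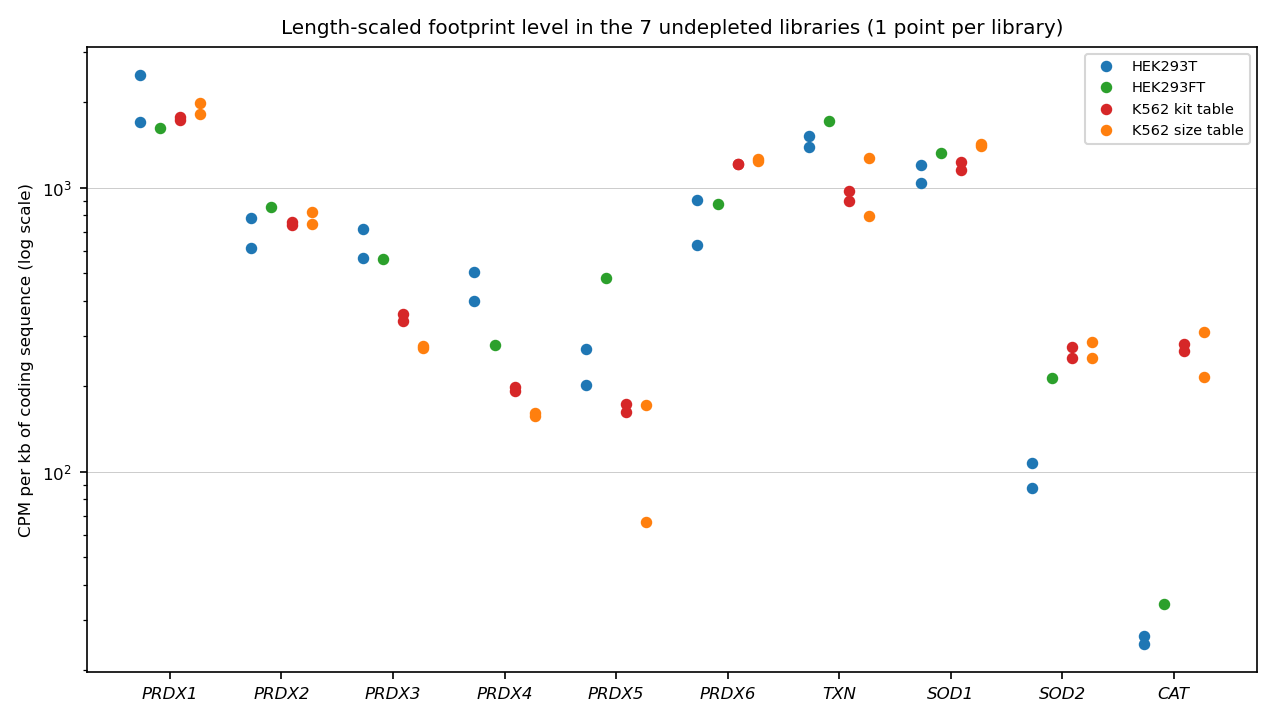
Level per kilobase of coding sequence (CPM per kb, log axis) of the 10 genes in the 7 undepleted libraries, 1 point per library, coloured by table. CAT lies at 24.7 to 34.3 CPM per kb in HEK cells and at 216 to 309 in K562 cells, while PRDX2 lies at 611 to 855 CPM per kb in all 7 libraries.

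Catalase separated the lines most. It read 41.7 and 39.1 CPM in the undepleted HEK293T libraries (5 and 6 counts), 54.4 CPM in undepleted HEK293FT (49 counts), 445 and 423 CPM in the undepleted K562 kit table, and 489 and 341 CPM in the undepleted 20 to 34 and 20 to 60 nt K562 libraries. All 4 K562 libraries were thus well above all 3 HEK libraries. CAT was 11.8-fold higher in the K562 kit table than in HEK293T (95% interval 8.01 to 17.4; log2 fold change 3.56, SE 0.28, edgeR adjusted p = 6.4e-34). It was 8.41-fold higher in the K562 size table than in HEK293FT (6.01 to 11.8; log2 fold change 3.07, SE 0.25, edgeR adjusted p = 1.83e-33), a comparison that shares no library with the first.

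The call for CAT held under all 11 alternatives of the first comparison (log2 3.31 to 3.63) and all 6 of the second (log2 2.59 to 3.18). The line, the experiment and the fragment sizes differ together and cannot be told apart in either comparison. Footprint counts of bulk cells also cannot tell more mRNA per cell from more ribosomes per mRNA, or fewer expressing cells from less RNA in each. Over all 26 libraries, whatever the kit, CAT lay at 341 to 523 CPM in the 16 K562 libraries (median 453) and at 39.1 to 105 CPM in the 10 HEK libraries (median 52.8). The lowest K562 value was 3.25 times the highest HEK value.

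PRDX2, the other peroxide-removing enzyme abundant in red cells, did not separate the lines. It read 467 and 365 CPM in undepleted HEK293T, 511 CPM in undepleted HEK293FT, 440 and 452 CPM in the undepleted K562 kit table, and 447 and 491 CPM in the undepleted K562 size table. The values of the 2 lines interleaved. The K562 kit table differed from HEK293T by a log2 fold change of 0.26 (95% interval −0.03 to 0.55, edgeR adjusted p = 0.148), and the K562 size table from HEK293FT by −0.17 (−0.48 to 0.15, edgeR adjusted p = 0.446). These intervals leave out a change as large as that of CAT. With the bead and blocking kits averaged in, an alternative chosen after seeing the data, PRDX2 was called higher in the K562 kit table than in HEK293T at log2 0.32 (edgeR adjusted p = 3.4e-06). Mean CPM, which lack the TMM scaling of the fit, differed little. They were 439 over the K562 kit libraries other than Ribo-Zero Plus, and 416, 446 and 409 in undepleted, Ribo-Zero Gold and RiboCop HEK293T.

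**Figure D2:**
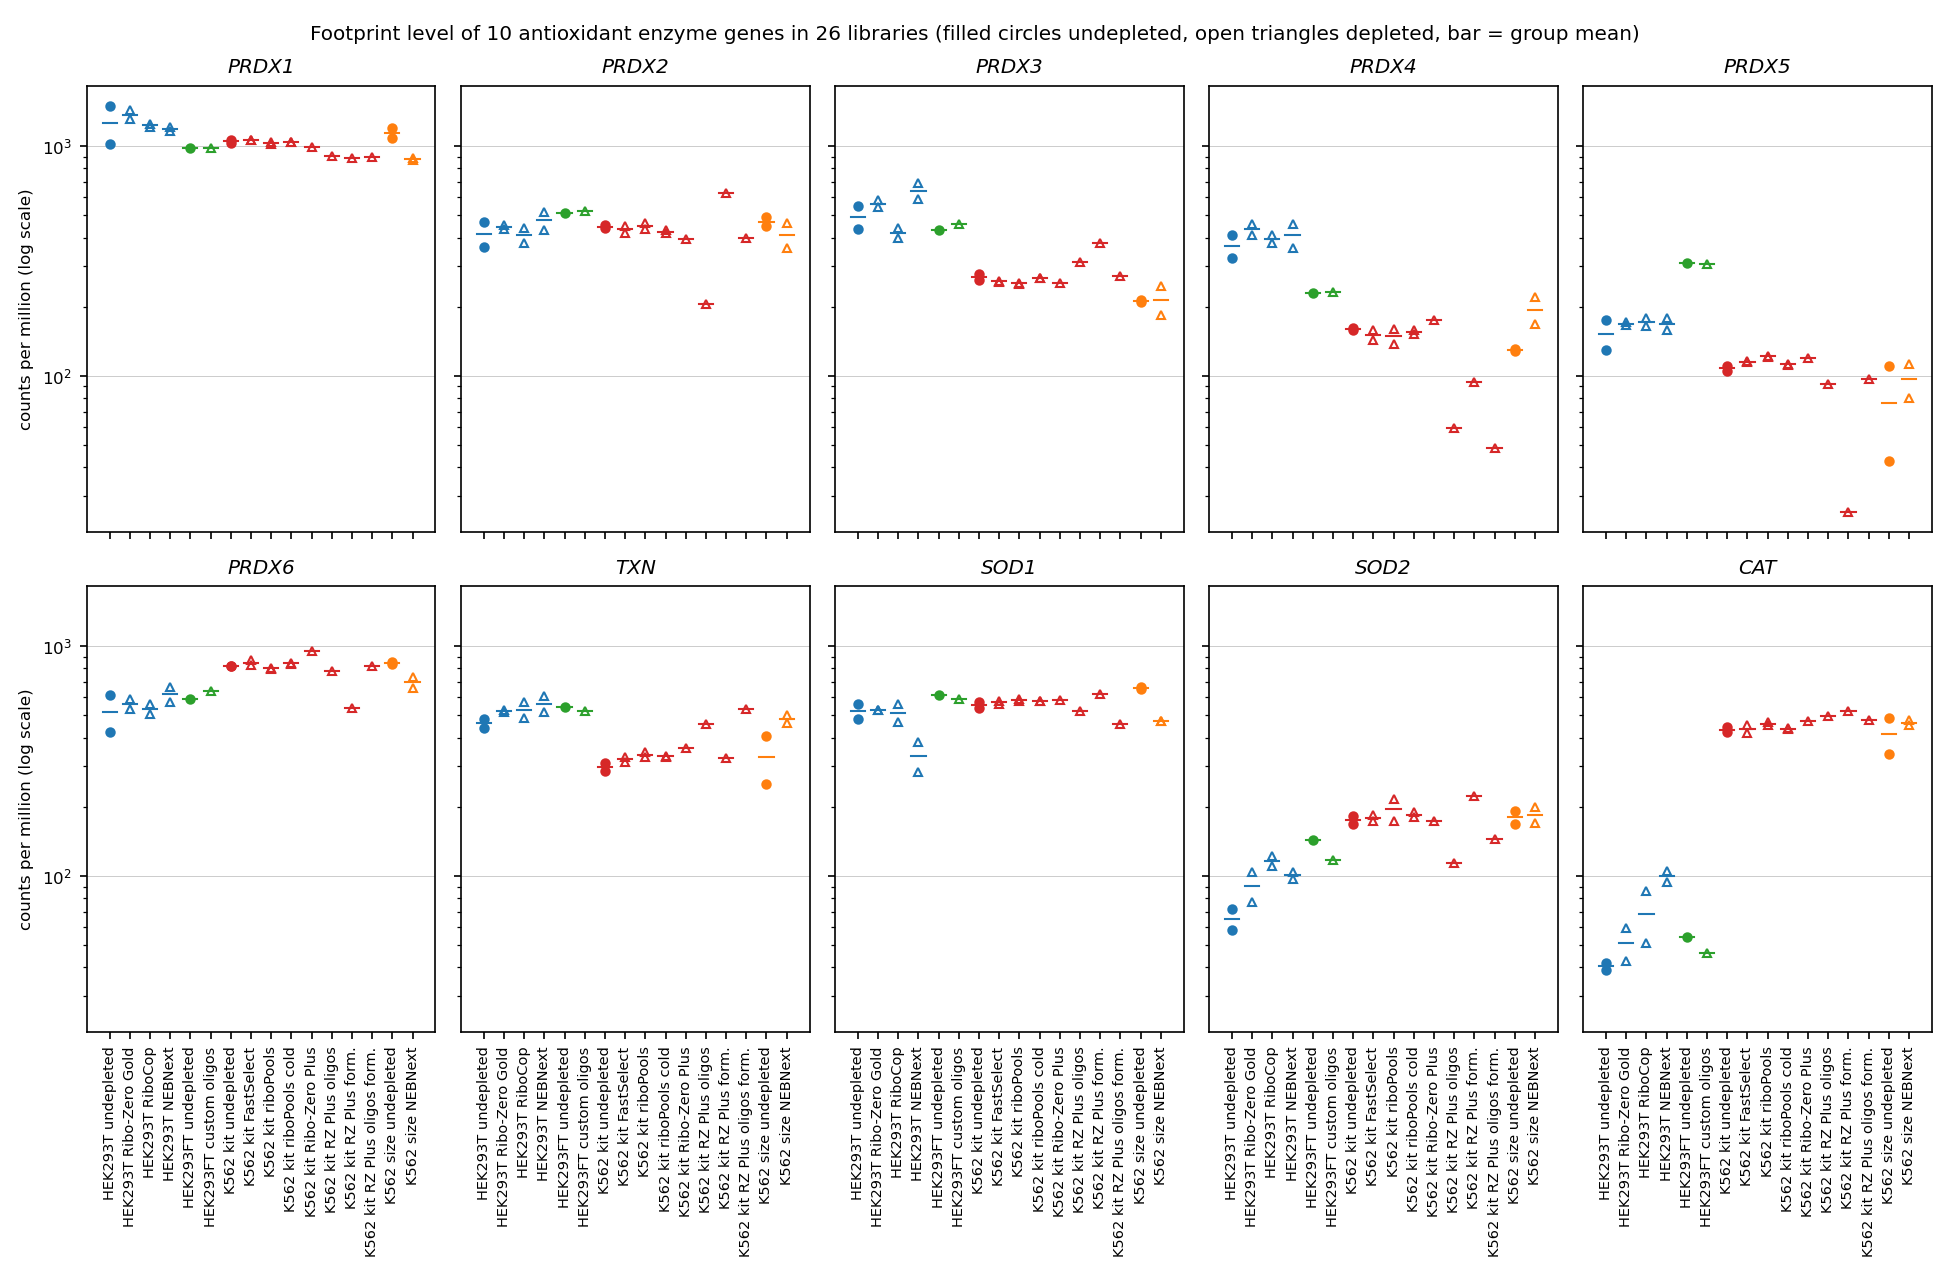
Level of each of the 10 genes in CPM (log axis) in all 26 libraries by group, with undepleted libraries as filled circles, depleted ones as open triangles and a bar at each group mean. The K562 points of CAT (341 to 523 CPM) lie above all HEK points (39.1 to 105 CPM), those of PRDX3, PRDX4 and PRDX5 lie below them, and those of PRDX2 overlap.

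Among the other peroxiredoxins PRDX3 and PRDX4 were lower and PRDX6 higher in K562 cells in both comparisons, and PRDX5 was lower in 1 of them. PRDX3, the mitochondrial member, read 550 and 437 CPM in undepleted HEK293T and 432 CPM in HEK293FT, against 277 and 261 CPM in the K562 kit table and 210 and 213 CPM in the K562 size table. Every undepleted K562 library was below every undepleted HEK library. PRDX3 was 1.64-fold lower in the K562 kit table than in HEK293T (1.34 to 2.02, edgeR adjusted p = 1.67e-05) and 2.05-fold lower in the size table than in HEK293FT (1.55 to 2.71, edgeR adjusted p = 5.07e-06), a call lost without the undepleted 20 to 34 nt library (edgeR adjusted p = 0.0719).

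PRDX4, which works in the endoplasmic reticulum and is secreted, read 325 and 411 CPM in HEK293T, 229 CPM in HEK293FT, 158 and 162 CPM in the K562 kit table and 131 and 128 CPM in the size table (25 and 6 counts). Here too all undepleted K562 libraries were lower. The gene was 2.13-fold lower in the kit table than in HEK293T (1.66 to 2.73, edgeR adjusted p = 2.62e-08) and 1.75-fold lower in the size table than in HEK293FT (1.21 to 2.53, edgeR adjusted p = 0.0109). The second call was lost with DESeq2 (adjusted p = 0.0776) and without the 20 to 34 nt library (edgeR adjusted p = 0.305).

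PRDX5, found in mitochondria, peroxisomes and the cytosol, was highest in HEK293FT. It read 175 and 130 CPM in HEK293T, 310 CPM in HEK293FT, 105 and 111 CPM in the K562 kit table, and 110 and 42.7 CPM in the K562 size table, the last of these from 2 counts. The size table was 3.19-fold lower than HEK293FT (2.19 to 4.66, edgeR adjusted p = 2.26e-08). The kit table was not called against HEK293T (log2 −0.34, −0.85 to 0.17, edgeR adjusted p = 0.292), but was with the bead and blocking kits averaged in (log2 −0.24, edgeR adjusted p = 0.0492).

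PRDX6, which uses a single cysteine and glutathione in place of thioredoxin, read 425 and 613 CPM in HEK293T, 592 CPM in HEK293FT, 819 and 820 CPM in the K562 kit table and 836 and 854 CPM in the K562 size table. All undepleted K562 values were higher. The differences were 1.70-fold (1.43 to 2.01, edgeR adjusted p = 6.53e-09) between the kit table and HEK293T and 1.42-fold (1.18 to 1.70, edgeR adjusted p = 7.46e-04) between the size table and HEK293FT, the latter lost without the 20 to 34 nt library (edgeR adjusted p = 0.24). PRDX1, the most abundant cytosolic peroxiredoxin, had log2 fold changes of −0.09 (−0.27 to 0.09) and 0.18 (−0.04 to 0.40) in these comparisons and was not called in either (edgeR adjusted p = 0.43 and 0.194). Against HEK293T it was called lower with total count scaling (log2 −0.23, edgeR adjusted p = 0.0343), where the median of all genes was −0.12. It was also called lower without the second HEK293T library (log2 −0.35).

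Thioredoxin read 442 and 482 CPM in HEK293T, 545 CPM in HEK293FT, 309 and 286 CPM in the K562 kit table, and 252 and 405 CPM in the size table. Each undepleted K562 library was below each undepleted HEK library, though the 20 to 60 nt library came close. TXN was 1.42-fold lower in the kit table than in HEK293T (1.15 to 1.75, edgeR adjusted p = 0.00328) and 1.93-fold lower in the size table than in HEK293FT (1.51 to 2.47, edgeR adjusted p = 1.77e-06). Without the second undepleted HEK293T library the first call was lost (edgeR adjusted p = 0.15), and without the 20 to 34 nt library the second (log2 −0.48, edgeR adjusted p = 0.359).

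Of the superoxide dismutases, SOD1 was called in neither comparison of lines. It read 483 and 560 CPM in HEK293T, 614 CPM in HEK293FT, 536 and 572 CPM in the K562 kit table and 652 and 662 CPM in the size table. Its log2 fold changes were 0.21 (−0.05 to 0.46, edgeR adjusted p = 0.197) and 0.09 (−0.18 to 0.36, edgeR adjusted p = 0.651). With the bead and blocking kits averaged in, it was called higher in K562 at log2 0.39 (edgeR adjusted p = 9.31e-11). Mean CPM of SOD1 differed less, at 572 over those K562 libraries and 522, 527 and 513 in undepleted, Ribo-Zero Gold and RiboCop HEK293T. SOD2 read 58.3 and 71.7 CPM in HEK293T (7 and 11 counts), 143 CPM in HEK293FT, 183 and 168 CPM in the K562 kit table and 168 and 192 CPM in the size table. It was 2.92-fold higher in the kit table than in HEK293T (1.93 to 4.42, edgeR adjusted p = 2.66e-06) but was not called against HEK293FT (log2 0.27, −0.27 to 0.81, edgeR adjusted p = 0.467).

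In all, 6 of the 10 genes were called between the K562 kit table and HEK293T, 3 higher and 3 lower. At 44.5% of the 5551 genes tested, calls were common in this comparison. Between the K562 size table and HEK293FT 6 of 10 were also called, 2 higher and 4 lower, against 36.6% of 5551 genes. The median log2 fold change of the 10 was 0.06 and −0.04, beside 0.01 and −0.01 for all genes. Without the 20 to 34 nt undepleted library of K562, only the calls of CAT and PRDX5 against HEK293FT were left. PRDX3, PRDX4, PRDX6 and TXN then had log2 fold changes of −1.07, −0.89, 0.47 and −0.48.

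**Figure D3:**
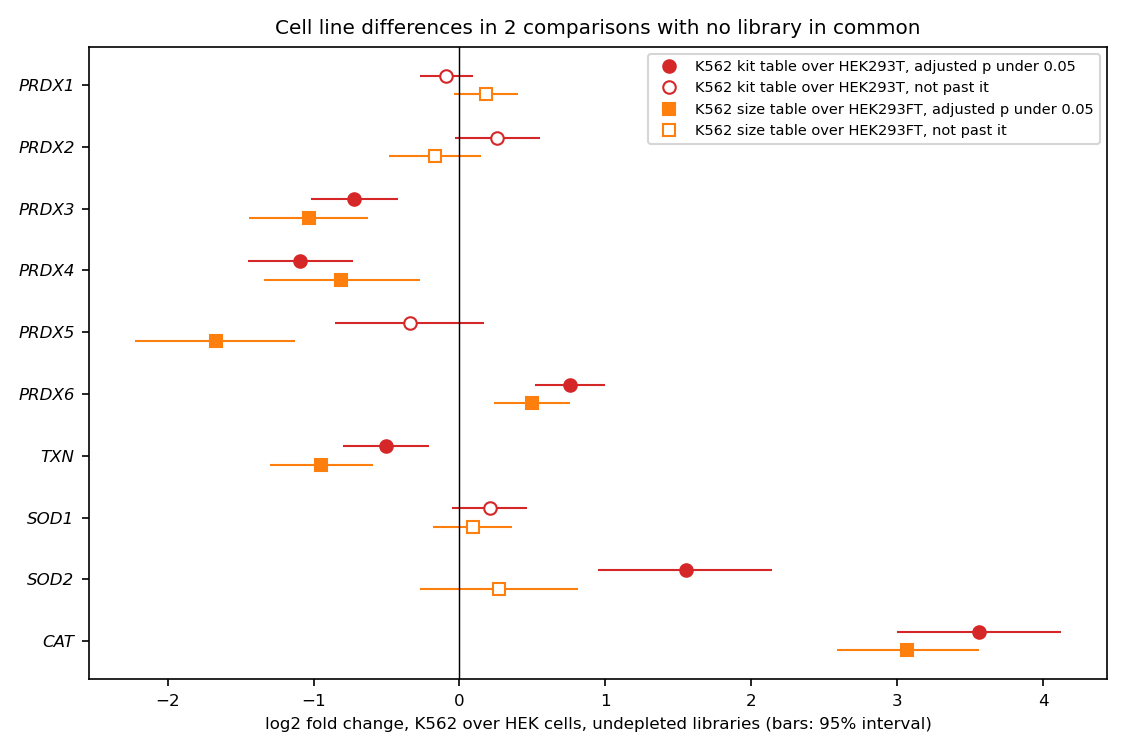
Log2 fold change of K562 over HEK cells in undepleted libraries for the 10 genes, with 95% intervals, for the K562 kit table over HEK293T (circles) and the K562 size table over HEK293FT (squares), filled where the adjusted p was under 0.05. CAT stands at 3.56 and 3.07, PRDX3, PRDX4 and TXN lie below 0 and PRDX6 above 0 in both, and the intervals of PRDX1, PRDX2 and SOD1 include 0 in both.

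Taking all 26 libraries, the K562 and HEK ranges did not overlap for 4 of the 10 genes, CAT, PRDX3, PRDX4 and PRDX5, against 20.6% of the 2698 genes that averaged 100 counts or more. PRDX3 ran from 185 to 377 CPM (median 258) in K562 cells and from 397 to 690 CPM (median 500) in HEK cells. PRDX4 ran from 48.4 to 220 CPM in K562 and from 229 to 458 CPM in HEK cells, and PRDX5 from 25.7 to 122 CPM and from 130 to 310 CPM. When the 4 Ribo-Zero Plus libraries were left out, SOD2 also did not overlap, against 29.1% of those 2698 genes.

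The 2 kidney lines differed from each other in 3 of the 10 genes, against 7.58% of 5551 genes, with 1 HEK293FT library whose spread was taken from the other groups. PRDX5 was 2.25-fold higher in undepleted HEK293FT than in HEK293T (1.64 to 3.07, edgeR adjusted p = 1.97e-05). SOD2 was 2.37-fold higher (1.49 to 3.75, edgeR adjusted p = 0.00619) and PRDX4 1.5-fold lower (1.16 to 1.93, edgeR adjusted p = 0.033). The calls of SOD2 and PRDX4 were lost with DESeq2 (adjusted p = 0.0678 and 0.161) and without the second HEK293T library (edgeR adjusted p = 0.0775 and 0.625), that of SOD2 also without the first (edgeR adjusted p = 0.132), and that of PRDX4 also with no filter on low counts (edgeR adjusted p = 0.22). PRDX2 was just short of the threshold at 1.36-fold higher (1.10 to 1.68, edgeR adjusted p = 0.0561) and passed it with no filter on low counts (edgeR adjusted p = 0.0471). PRDX1, not called at log2 −0.21 (edgeR adjusted p = 0.249), was called lower in HEK293FT with total count scaling (log2 −0.33, edgeR adjusted p = 0.0187). That scaling put the median of all genes at −0.11, and PRDX1 lay at −0.23 relative to this median. PRDX1 was also called lower without the second HEK293T library (log2 −0.47).

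The 2 K562 experiments were compared in the same fit. By edgeR 0 of the 10 genes were called between the undepleted libraries of the size and kit tables, with 0 at an unadjusted p under 0.05 and 0 by DESeq2, against 0.288% of 5551 genes. The log2 fold change ran from −0.36 (−0.78 to 0.05) for PRDX3 to 0.23 (−0.03 to 0.49) for SOD1. CAT differed by 0.07 (−0.23 to 0.37) and PRDX2 by 0.02 (−0.28 to 0.32).

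The 10 genes work within a wider system, of which 42 other genes were followed, and 30 passed the filter on low counts between lines. Between the K562 kit table and HEK293T 13 of these 30 were higher and 4 lower in K562, and between the size table and HEK293FT 12 were higher and 3 lower. That is 56.7% and 50% of the 30 called, beside 44.5% and 36.6% of all genes tested, and the counts by role that follow were not tested against those shares. Of the genes that supply NADPH, 3 of 6 tested were higher in each comparison and 0 lower, among them PGD, an enzyme of the pentose phosphate pathway, in both. In the glutathione system 4 of 11 were higher and 3 lower in the first comparison, and 4 higher and 2 lower in the second. These were not all the same genes, and GLRX3 was lower in the first and higher in the second. The median log2 fold change of the 30 was 0.51 and 0.37, beside 0.01 and −0.01 for all genes. Genes that are at 0 in K562 passed the filter through the HEK libraries alone.

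The genes higher in K562 were led by TXNIP, NQO1 and BLVRB. TXNIP, an inhibitor of thioredoxin, read 275 and 258 CPM in the undepleted K562 kit table and 300 and 213 CPM in the size table, against 25 and 0 CPM in HEK293T and 24.4 CPM in HEK293FT. With 3 counts over the HEK293T libraries, the CPM ratio was 24.3 with a counting interval of 8.28 to 118, and against HEK293FT the fitted fold was 11.4 (edgeR adjusted p = 2.58e-24). NQO1, a quinone reductase, had 2 counts over the undepleted HEK293T libraries, which gives a ratio of 12.1 (3.29 to 100), and a ratio of 14.6 (5.76 to 43.7) over HEK293FT, whose call was lost without the 20 to 34 nt library (edgeR adjusted p = 0.064). BLVRB, the biliverdin reductase abundant in red cells, was 10.7-fold higher than in HEK293T (edgeR adjusted p = 3.61e-30) and 6.28-fold higher than in HEK293FT (edgeR adjusted p = 7.32e-23).

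The genes lower in K562 were led by GPX1 and HMOX1. GPX1, a glutathione peroxidase that also reduces hydrogen peroxide, had 0 counts in all 16 K562 libraries, 27561047 counts in total, which allows a level of up to 0.109 CPM. In the 10 HEK libraries it read 79.6 to 179 CPM, with a median of 128. The measured level was 81.9 times the floor of 3 counts over the K562 group in undepleted HEK293T (31 counts). In undepleted HEK293FT (161 counts) it was 14.1 times the floor. Such ratios leave out the counting error of the HEK libraries. HMOX1, which degrades haem, had 3 counts in the 16 K562 libraries and none in the undepleted ones, against 33.3 to 93.9 CPM in HEK cells. Its measured level was 39.6 times the floor in undepleted HEK293T (15 counts) and 6.58 times in undepleted HEK293FT (75 counts). DESeq2 called HMOX1 in neither comparison (adjusted p = 0.0521 and 0.37), and the second call was also lost without the 20 to 34 nt library (edgeR adjusted p = 0.0804).

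Among called genes, GCLC, the catalytic subunit of the rate-limiting enzyme of glutathione synthesis, was 3.93-fold lower in the kit table than in HEK293T (edgeR adjusted p = 0.00513). This call was lost without the first HEK293T library or the first library of the kit table (edgeR adjusted p = 0.083 and 0.0669). GPX4, which reduces lipid peroxides, was 2.84-fold lower in the size table than in HEK293FT (edgeR adjusted p = 9.47e-05), a call lost without the 20 to 34 nt library (edgeR adjusted p = 0.139). GPX4 was also 3.56-fold higher in HEK293FT than in HEK293T (edgeR adjusted p = 2.76e-06) and GLRX3, a glutaredoxin, 1.66-fold lower (edgeR adjusted p = 0.0181). These 2 were the only ones of the 30 called between the HEK lines. GLRX3 was not called with DESeq2, with no filter or without the second HEK293T library (adjusted p = 0.176, 0.124 and 0.95).

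The gene whose level followed CAT most closely over the 26 libraries was ANXA1 (Pearson r of log2(CPM + 1) 0.989), followed by HIST1H2AE (0.984) and CTCFL (0.979), among the 2698 genes that averaged 100 counts or more. For PRDX2 they were NDUFA6 (0.849), RBM42 (0.837) and AURKB (0.826). The 26 points share cell lines, tables and depth, and r is given as a description.

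The kits were compared with the undepleted libraries of the same table. NEBNext lowered 1 of the 10 genes in HEK293T, SOD1, against 3.24% of 4410 genes. SOD1 read 483 and 560 CPM undepleted and 383 and 283 CPM with NEBNext, so the pairs did not overlap, and in the Ribo-Zero Gold and RiboCop libraries it read 467 to 558 CPM. It fell by 0.68 on the log2 scale (SE 0.19, 95% interval −1.06 to −0.30, edgeR adjusted p = 0.0177), a 1.61-fold drop. The call was lost with DESeq2 (adjusted p = 0.14), with no filter on low counts (edgeR adjusted p = 0.054), without the second NEBNext library (0.514) and without the second undepleted library (0.35).

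CAT in HEK293T read 105 and 94.5 CPM with NEBNext (14 and 19 counts) against 41.7 and 39.1 CPM undepleted, without overlap. The log2 fold change was 1.30 (0.34 to 2.26) and was not called (edgeR adjusted p = 0.137). Its RiboCop libraries lay between, at 51.2 and 86.1 CPM. PRDX3, the mitochondrial peroxiredoxin, had 690 and 587 CPM with NEBNext against 550 and 437 CPM undepleted, also not called (log2 0.39, 0.05 to 0.72, edgeR adjusted p = 0.228).

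NEBNext in K562 raised 1 of the 10 genes, TXN, against 2.85% of 3715 genes. TXN read 252 and 405 CPM in the undepleted 20 to 34 and 20 to 60 nt libraries and 503 and 461 CPM with NEBNext. Both NEBNext libraries were higher, by more in the 20 to 34 nt range. It rose by a log2 fold change of 0.81 (SE 0.23, 95% interval 0.37 to 1.25, edgeR adjusted p = 0.0198), which is 1.76-fold. The fit had 1 residual degree of freedom, and the call was lost in 6 of 9 alternatives, among them DESeq2 (adjusted p = 0.893). It was also lost with no size term (log2 0.80, edgeR adjusted p = 0.11). With the undepleted 20 to 34 nt library left out, in a fit that also had no size term, the log2 fold change was 0.31.

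SOD1, which fell with NEBNext in HEK293T, read 652 and 662 CPM undepleted and 471 CPM in each NEBNext library of K562. Its log2 fold change of −0.41 (−0.78 to −0.04) was not called (edgeR adjusted p = 0.281), and CAT changed by 0.10 (−0.30 to 0.51). Whether the NEBNext effect differed between the tables was tested as an interaction. By edgeR 0 of the 10 genes were called, with 1 (CAT) at an unadjusted p under 0.05 and 0 by DESeq2, against 0.296% of 4736 genes. The differences in effect, K562 minus HEK293T, were −1.21 for CAT (−2.25 to −0.18, edgeR adjusted p = 0.551), 0.50 for TXN (−0.08 to 1.08) and 0.26 for SOD1 (−0.28 to 0.79).

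The kits without a nuclease left all 10 genes uncalled. With Ribo-Zero Gold in HEK293T edgeR called 0 of 10, with 0 at an unadjusted p under 0.05 and 0 by DESeq2, against 0.068% of 4410 genes. With RiboCop edgeR also called 0 of 10, against 0% of 4410 genes, where 195 genes had an unadjusted p under 0.05 and DESeq2 called 0. Only SOD2 was under that unadjusted threshold among the 10 (122 and 110 CPM against 58.3 and 71.7 CPM, log2 0.78, 0.03 to 1.54). With Ribo-Zero Gold the 95% interval ran from −0.04 to 0.36 for PRDX1 but from −0.62 to 1.33 for CAT, so moderate shifts of CAT were not detectable at this depth.

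The K562 kit table was deeper and bound the changes more closely. FastSelect, riboPools and riboPools with cold elution gave 0 calls by edgeR and 0 by DESeq2 among the 10 genes, against 0.0198%, 0.0794% and 0.258% of 10078 genes. The number with an unadjusted p under 0.05 was 0, 1 and 1, TXN in both cases. TXN read 309 and 286 CPM undepleted, 312 and 331 with FastSelect, 328 and 346 with riboPools, and 331 and 332 CPM with cold elution. All 6 depleted values exceeded both undepleted ones, by log2 0.11, 0.18 and 0.15, with edgeR adjusted p from 0.686 to 0.927. CAT changed by 0.01 (−0.10 to 0.12), 0.08 (−0.04 to 0.19) and 0.01 (−0.10 to 0.11), and PRDX2 by −0.04, 0.01 and −0.08.

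Plain Ribo-Zero Plus raised 2 of the 10 genes and lowered none, against 20.6% of 10078 genes. PRDX6 read 954 CPM against 819 and 820 CPM undepleted, a rise of 1.18-fold (1.10 to 1.26, edgeR adjusted p = 3.33e-04). In a fit that also took in the 3 libraries with additions, its log2 fold change was −0.13 (edgeR adjusted p = 0.393), and PRDX1 (log2 −0.28, edgeR adjusted p = 0.0197) and PRDX4 (log2 −1.04, edgeR adjusted p = 0.0181) were called lower. That fit called 143 genes higher and 1287 lower, against 902 and 1178 without those libraries. Its median log2 fold change over 9628 genes was −0.43, against −0.0144 without them. PRDX1 and PRDX6 thus lay above the median gene of that fit, and PRDX4 below it. TXN read 359 CPM against 309 and 286 CPM, a rise of 1.22-fold (1.09 to 1.36, edgeR adjusted p = 0.00648), and its call was lost with DESeq2 (adjusted p = 0.0745) and without the second undepleted library (edgeR adjusted p = 0.085). PRDX2 was at 396 CPM against 440 and 452 CPM (log2 −0.15, −0.30 to −0.01, edgeR adjusted p = 0.117). The kit group was 1 library, and its spread was taken from the 4 pairs of the other groups.

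**Figure D4:**
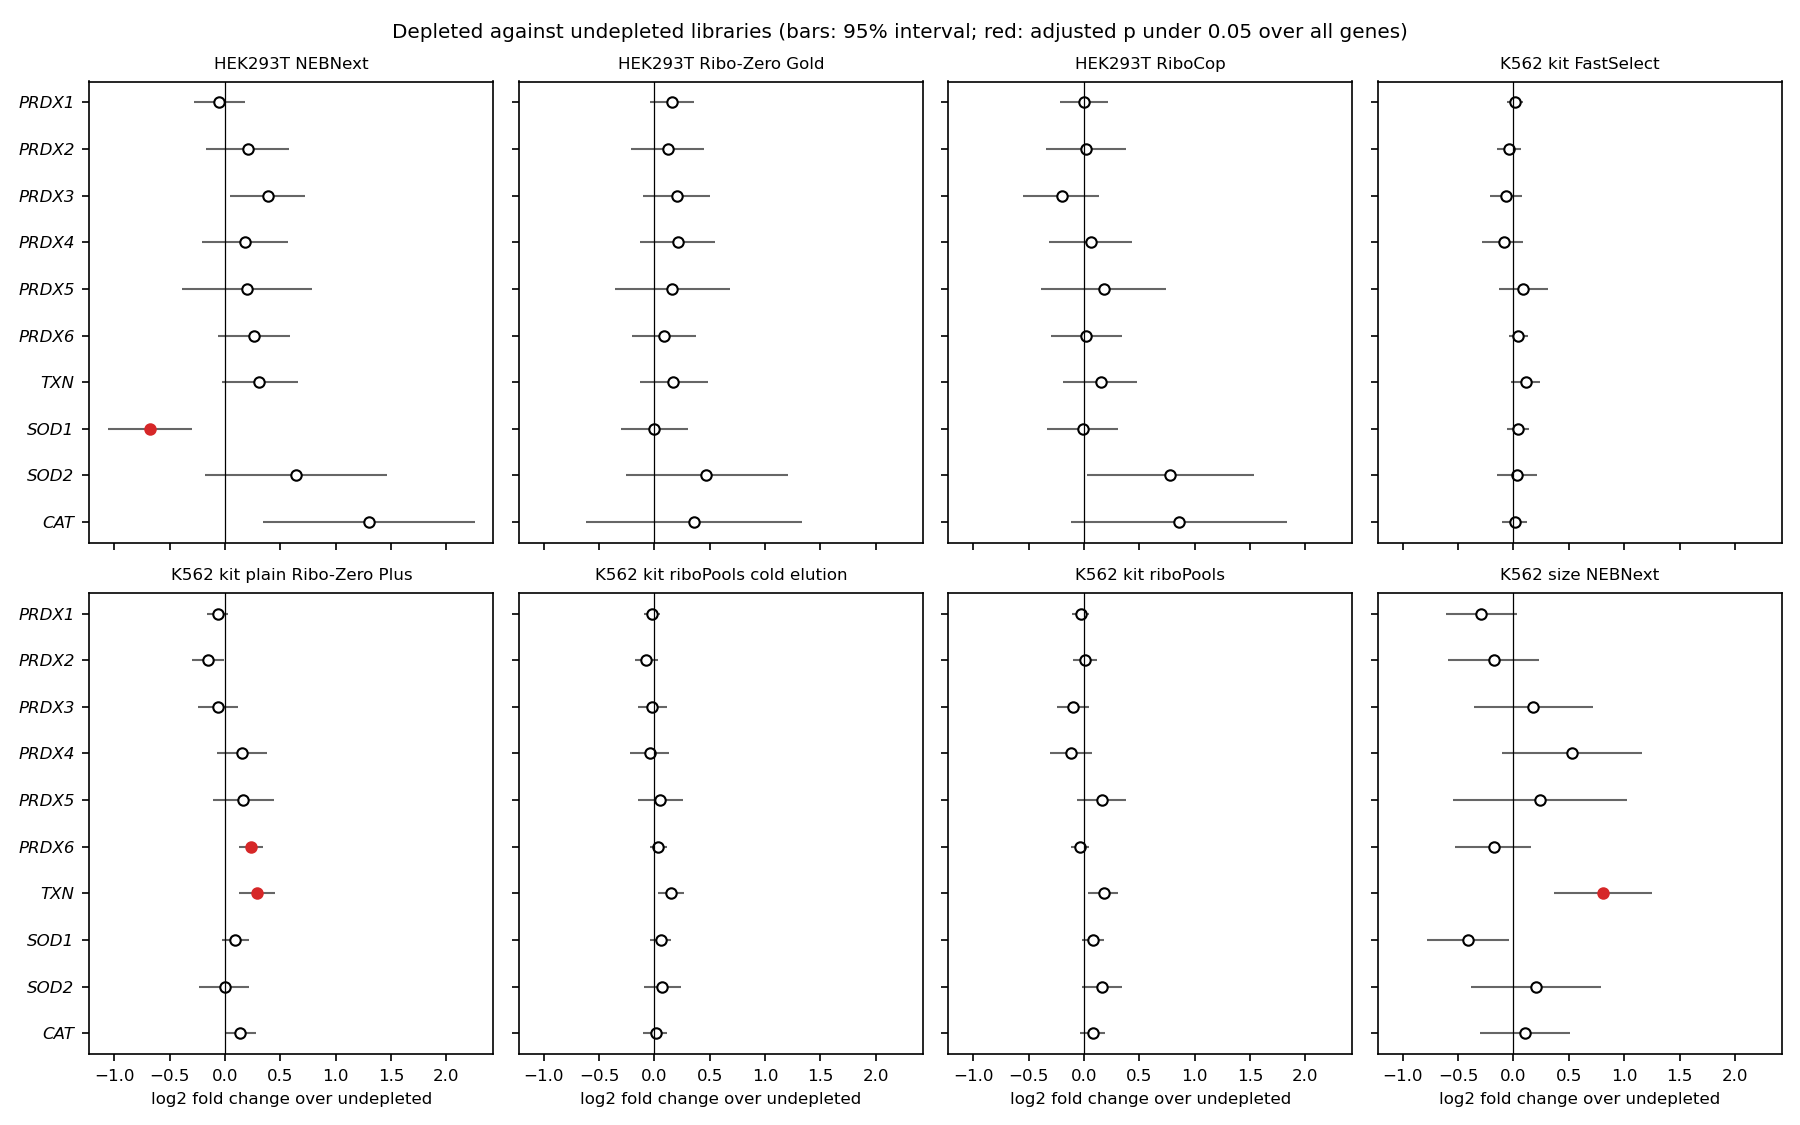
Log2 fold change of the 10 genes over the undepleted libraries of the same table for 8 kit comparisons, with 95% intervals and calls in red. SOD1 with NEBNext in HEK293T (−0.68), TXN with NEBNext in K562 (0.81) and PRDX6 (0.24) and TXN (0.29) with plain Ribo-Zero Plus are the 4 calls, and the bars are far shorter in the deeper K562 kit table.

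Of the other antioxidant genes, 3 were raised and 5 lowered by plain Ribo-Zero Plus, of 37 tested. These 21.6% are near the 20.6% of all genes called. The raised gene with the largest change was SESN1, a stress-response sestrin, with 18 counts against 3 and 3 undepleted, a CPM ratio of 3.53 (counting interval 1.34 to 10.9, edgeR adjusted p = 0.0366). Its call was lost without either undepleted library (edgeR adjusted p = 0.142 and 0.1). The lowered gene with the largest change was GCLC with 7 counts against 13 and 16, a ratio of 0.284 (0.105 to 0.663, edgeR adjusted p = 0.0105), not called with DESeq2 (adjusted p = 0.0922) or without the second undepleted library (edgeR adjusted p = 0.0893). TXNRD1, the reductase of thioredoxin, and PARK7, also known as DJ-1, were among the other lowered genes.

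In the Ribo-Zero Plus libraries with additions, peroxiredoxin levels lay on both sides of the undepleted ones. They are 1 library each, so ratios to the summed undepleted libraries carry counting error only and no test, and PCR reads are not independent molecules. PRDX2 stood at 206 CPM in the library with oligos (38 counts), at 625 CPM in the one with formaldehyde (73 counts) and at 400 CPM in the one with both (66 counts). The undepleted level was 446 CPM. The ratios were 0.462 (0.325 to 0.638), 1.40 (1.09 to 1.78) and 0.897 (0.688 to 1.15). The 2 extreme values of PRDX2 among all 26 libraries thus both came from shallow libraries of this kit.

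PRDX4 had 59.5, 94.2 and 48.4 CPM with oligos, formaldehyde and both (11, 11 and 8 counts), against 160 CPM undepleted. Its ratios were 0.373 (0.184 to 0.676), 0.590 (0.292 to 1.07) and 0.303 (0.130 to 0.605), and these were the 3 lowest PRDX4 values of the series. TXN had ratios of 1.54 (1.22 to 1.94), 1.09 (0.766 to 1.52) and 1.79 (1.41 to 2.24). With formaldehyde alone PRDX6 had a ratio of 0.659 (0.504 to 0.847), PRDX3 of 1.40 (1.01 to 1.90), and PRDX5, with 3 counts, of 0.238 (0.0487 to 0.704).

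CAT kept ratios of 1.15 (0.915 to 1.42), 1.20 (0.912 to 1.56) and 1.10 (0.863 to 1.39), and the intervals of PRDX1 and SOD1 also included 1 in all 3 libraries. In total the interval left out 1 for 3 genes with oligos, 4 with formaldehyde and 2 with both. Over genes with at least 100 undepleted counts (3834 genes) the share was 39.6%, 40.5% and 41.7%.

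**Figure D5:**
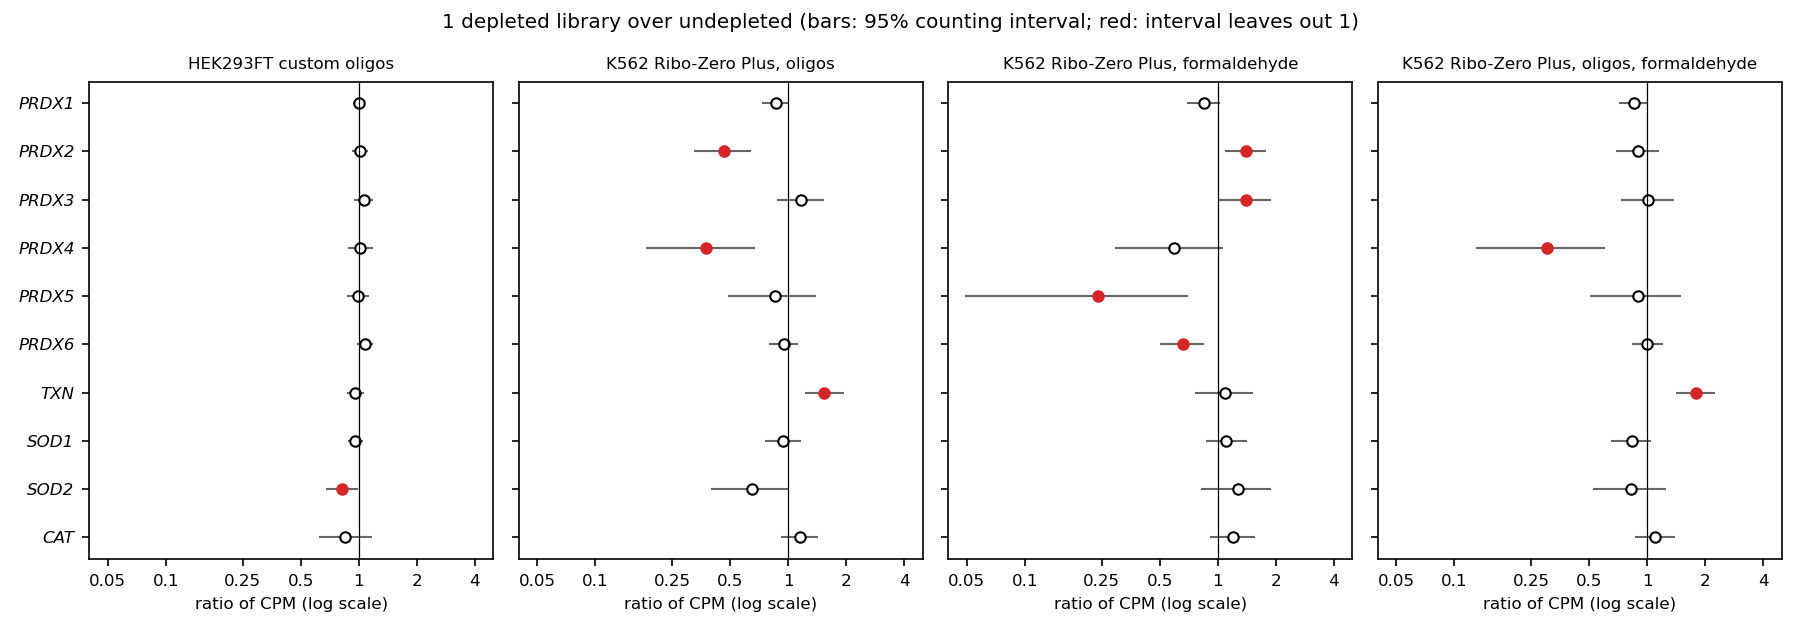
Ratio of CPM (log axis) of 1 depleted library over undepleted for the 10 genes, with 95% counting intervals, red where the interval leaves out 1. The HEK293FT ratios lie near 1, whereas with Ribo-Zero Plus and additions PRDX2 ranges from 0.462 to 1.40 and PRDX4 from 0.303 to 0.590.

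Custom oligos in HEK293FT left the levels close to undepleted in the 1 pair available. PRDX1 had 979 CPM against 977, PRDX2 520 against 511, TXN 522 against 545 and CAT 46.1 against 54.4 CPM. The counting interval included 1 for 9 of the 10 genes and left it out for SOD2, with 117 against 143 CPM and a ratio of 0.818 (0.676 to 0.995). Over all genes with at least 100 undepleted counts, 8.37% of 1733 left out 1, and CAT with 49 counts was below that minimum.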

How the data were processed

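Ribosome footprints of 26 libraries were analysed from 4 tables of counts per coding sequence. The counts are whole reads per transcript as deposited by the authors, and the RPM tables that the authors deposited beside them equalled the CPM computed here within 3.64e-12. The submitters' processing notes name CASAVA 1.8, STAR and GRCh38 (hg38). Annotation, filters, duplicates and multi-mapped reads are not given in the sources used here. Of the transcript IDs, 97.51% matched GENCODE 29.

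Counts were tested with edgeR 4.0.16 in R 4.3.3 (quasi-likelihood, TMM, filterByExpr with a minimum count of 10, Benjamini-Hochberg over all genes of a fit, adjusted p under 0.05), and DESeq2 1.42.0 was an alternative. The fits held 8 HEK293T libraries, 9 of the K562 kit table, 4 of the size table with size as a term, 7 undepleted libraries, or 8 for the NEBNext interaction. The fit of undepleted libraries, used for all comparisons between lines and between K562 experiments, had no size term. The scripts were tested on simulated data. The 10 genes, the list of 42 other antioxidant genes and the markers were chosen with earlier results of these data known. All 10 genes are named, as are the 3 called antioxidant genes with the largest rise and fall per comparison of lines, and 1 of each per kit. Single libraries have 95% exact binomial intervals, which cover counting error only, as do floors of 3 counts over a group. Replicates were compared by chi-square. The RiboCop pair (1.027 per degree of freedom) agreed within sampling noise, but totals of 156200 and 290502 and separate barcodes kept them as 2 libraries. Some genes of these lists are not reported here by name.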

Additional observations from a re-analysis of the deposited data

How the results depend on the processing

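Of 1214 values of the 10 genes under an alternative, 1179 kept their direction or stayed uncalled, 24 lost their call, 9 gained one and 2 reversed, and 74 of the first kind changed sign while uncalled. With all 12 K562 kit libraries and 1 Ribo-Zero Plus term, PRDX4 went to −1.04, PRDX6 to −0.13 and SESN1 to −4.60. The median of all genes was −0.43 for Ribo-Zero Plus in that fit, and FastSelect, riboPools and cold elution gave 0, 0 and 0 genes. The cause was not tested. DESeq2 called 58 genes for NEBNext in HEK293T, 1 for Ribo-Zero Gold, 16 for NEBNext in K562, 1 for FastSelect, 2 for riboPools, 17 for cold elution, 491 for plain Ribo-Zero Plus and 1 for the interaction. Between lines it called 1637 (K562 kit table and HEK293T), 1177 (size table and HEK293FT) and 170 (HEK lines). Of the 10 genes it called 0 and 0 for NEBNext in HEK293T and K562, 1 for Ribo-Zero Plus and 1 between the HEK lines. With no filter, 0 of the 10 were called for NEBNext in HEK293T, 1 gene for Ribo-Zero Gold and 9 between the K562 tables. With the compared groups alone Ribo-Zero Gold gave 5 genes. NEBNext in K562 gave 40 genes and 0 of the 10 with no size term, and 0 of the 10 with total count scaling. Averaging bead and blocking kits, chosen after seeing the data, gave 6625 genes between the K562 kit table and HEK293T.

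Leaving out 1 library gave 57 to 152 genes for NEBNext in HEK293T (0 to 1 of the 10), 1 to 1 for Ribo-Zero Gold, 0 to 1 for RiboCop, 9 to 309 for NEBNext in K562 (0 to 1), 1 to 3 for FastSelect, 3 to 7 for riboPools, 13 to 21 for cold elution and 1266 to 1394 for Ribo-Zero Plus (1 to 2). Between lines it gave 1627 to 2115 for the K562 kit table and HEK293T (6 to 6), 731 to 1888 for the size table and HEK293FT (2 to 6), 221 to 231 for the HEK lines (2 to 2), 2 to 14 between the K562 tables and 0 to 20 for the interaction. A lone library was assumed to vary like the other groups. For NEBNext in K562 the fits that left out 1 library also had no size term. Total count scaling moved the median of all genes to −0.12 between the K562 kit table and HEK293T, where PRDX1 was at −0.23, and turned the split of higher and lower calls from 265 and 156 to 182 and 251 between HEK lines and from 71 and 35 to 38 and 34 for NEBNext in K562.

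Replicate numbers did not pair the libraries (correlations of deviations 0.04 to 0.11 in HEK293T, −0.05 to 0.01 in the K562 kit table). With the replicate block, calls were 154 genes for NEBNext in HEK293T, 3 for Ribo-Zero Gold, 0 for RiboCop, 2 for FastSelect, 9 for riboPools, 27 for cold elution and 2804 between the K562 kit table and HEK293T. Depth limited CAT in undepleted HEK293T (5 and 6 counts) and PRDX5 and PRDX4 in the undepleted 20 to 60 nt K562 library (2 and 6 counts).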
